A study of Mus musculus with 3 samples.

Results

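Peaks of chromatin captured through Pvt1, a long non-coding RNA, were examined between genes in C2C12 cells, a line of mouse myoblasts. A peak was counted as intergenic when its summit lay outside the span of every gene of GENCODE mouse release 21 and more than 5000 bp from the start (TSS) of every one of them. Peaks on chromosome Y were left out. The rule selected 662 of 1676 peaks, 375 of 962 in the odd-probe list and 287 of 714 in the even-probe list. Of the remaining peaks off chromosome Y, 676 lay in a gene body far from any TSS and 319 lay within 5000 bp of a TSS.

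The method was ChIRP, in which biotinylated oligonucleotides complementary to an RNA pull that RNA out of crosslinked, sheared chromatin, and the DNA that comes with it is sequenced. Per the labels' protocols, fixation was with 1% glutaraldehyde, shearing by sonication left DNA pieces of 50 to 130 bp, and each capture used 400 pmol of probes. The series has 3 samples of proliferating C2C12 myoblasts at passages 8 to 14: a capture with 9 odd probes, a capture with the other 9 (even) probes, and unprecipitated control DNA of about 400 bp. Per the series design text the odd and even captures came from different biological samples, while both titles carry replicate number 1. The cells are a single line, and no sample without Pvt1 or with probes to another RNA was used here. With 1 sample per probe set, no value below has a replicate error. Intervals are exact 95% Clopper-Pearson intervals for shares and exact Poisson intervals for densities, and they cover counting error only, since reads amplified by PCR without molecular identifiers are not independent molecules.

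Pvt1 is transcribed from a locus next to the Myc oncogene and is best known from tumours, where it is often co-amplified with Myc. Probes of an odd and an even set hybridise to different stretches of the same RNA, so in ChIRP a place recovered by both sets is usually held to be less dependent on the off-target hybridisation of any single probe. Intergenic DNA contains distal regulatory elements such as enhancers, along with repeats and long stretches without known function.

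Both lists were called against the same unprecipitated DNA, so they share their control. Removal of duplicates left 14203 of 1310893 odd tags (1.08%), 12715 of 1352067 even tags (0.940%) and 95% of the control tags, per the file headers. The pileup is the number of tags, each extended to 147 bp, that cover the summit of a peak. The fold enrichment compares that height with the local background, but in these peaks it followed the pileup almost exactly. In the odd list 3 tags went with 3.91 and 14 tags with 14.66, so it is not a separate measure. Pileup and fold enrichment are both values of the authors' peak caller. Distances below run from the summit to the nearest edge of a protein-coding gene unless another measure is named.

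Short sequences recurred at the ends of these peaks, and those at the highest intergenic sites are shown first because most of the sites share them. The list of 20 such 8-base sequences was taken from the 995 peaks that are not intergenic. Each was read inward from either end of a peak, on the strand that points into the peak, and had to begin between 10 bp outside and 10 bp inside that end. The stretches below are 40 bases of GRCm38 (mm10), from RefSeq, printed 5′ to 3′ and inward from 10 bp outside the end of the odd peak (the even peak for Dynlrb2). Capitals mark the listed sequences, and each site is named after the nearest protein-coding gene. The first 4 sites were found by both sets, and the other 4 by one set only.
Tyrp1 site (chr4:79841819-79841858, minus strand): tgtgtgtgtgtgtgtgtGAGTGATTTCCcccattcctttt
Armc1 site (chr3:19114506-19114545, plus strand): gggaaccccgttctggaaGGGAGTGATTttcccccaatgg
Ndufa10 site (chr1:92372362-92372401, minus strand): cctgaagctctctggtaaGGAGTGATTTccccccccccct
Kcnip4 site (chr5:49590125-49590164, plus strand): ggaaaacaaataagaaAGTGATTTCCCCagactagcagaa
Zfat site (chr15:68051538-68051577, minus strand): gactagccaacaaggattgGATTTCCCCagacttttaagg
Cd82 site (chr2:93379389-93379428, minus strand): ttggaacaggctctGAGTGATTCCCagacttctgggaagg
Megf9 site (chr4:70562242-70562281, minus strand): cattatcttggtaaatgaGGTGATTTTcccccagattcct
Dynlrb2 site (chr8:116164447-116164486, plus strand): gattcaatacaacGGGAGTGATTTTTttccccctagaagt

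All 8 stretches carry capitals drawn from a single family of overlapping sequences, in which ATTTCCCC, GATTTCCC, TGATTTCC, GTGATTTC, AGTGATTT and GAGTGATT are the same run shifted base by base, with variants such as GTGATTCC and GTGATTTT. The family also includes runs with more cytosines or with an adenine or thymine after them, such as TTTCCCCC, TTTCCCCA and TTTCCCCT. A second kind of end was a run of thymines, followed in part by guanines, and it is shown for 2 sites found by both sets and for 2 found by the even set alone (the Phf3 and Cnep1r1 sites).
Kcnt2 site (chr1:141647913-141647952, plus strand): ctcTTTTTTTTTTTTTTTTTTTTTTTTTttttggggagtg
Rpl3 site (chr15:80058039-80058078, plus strand): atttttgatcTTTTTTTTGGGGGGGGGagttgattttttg
Phf3 site (chr1:30464636-30464675, minus strand): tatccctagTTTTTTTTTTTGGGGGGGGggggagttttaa
Cnep1r1 site (chr8:88093946-88093985, plus strand): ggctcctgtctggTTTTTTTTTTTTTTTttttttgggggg

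The thymine run at the Kcnt2 site extended past the end of the peak. The position of the sequence within a complete peak is shown for the Kcnip4 site, where the capitals begin a few bases inside the left end and the rest of the peak carries none.
Whole Kcnip4 site (chr5:49590135-49590287, plus strand): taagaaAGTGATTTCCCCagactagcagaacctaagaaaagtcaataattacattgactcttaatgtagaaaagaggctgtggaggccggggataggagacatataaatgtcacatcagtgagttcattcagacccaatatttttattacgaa

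A recurring edge sequence was present in 300 of the 375 odd intergenic peaks (80.0%, 75.6 to 83.9). Over all odd peaks off chromosome Y the share was 78.0%. It was present in 237 of the 287 even intergenic peaks (82.6%, 77.7 to 86.8), against 79.5% of all even peaks off chromosome Y. The shares in gene-body peaks were 77.2% (72.8 to 81.3) with odd probes and 78.6% (73.4 to 83.3) with even probes, and these intervals overlap those of the intergenic peaks. The intergenic shares were thus near the share over all peaks. The gene-body peaks are among the 995 peaks that gave the list of sequences, and the shares over all peaks include those 995. These comparison shares are therefore not independent of the list, while the intergenic shares are from peaks not used to make it. In windows of 148 bp (the median peak length) placed every 1000 bp over the 1150 Mb that could have met the rule, 2.83% had such a sequence at an end.

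ATTTCCCC, the most frequent sequence in the 995 peaks that gave the list, lay at an end of 115 odd intergenic peaks (30.7%, 26.0 to 35.6). In the even list it lay at an end of 96 (33.4%, 28.0 to 39.2), against 0.112% of the genome windows. GATTTCCC was slightly more frequent at the ends of intergenic peaks, in 122 odd (32.5%) and 98 even (34.1%). Searched anywhere in a peak on either strand, ATTTCCCC was found in 39.7% of odd and 38.7% of even intergenic peaks and in 0.828% of windows. GTGATTTC, which overlaps it by 5 bases, was found in 22.1% and 26.5% of peaks and 0.689% of windows. TTTTGGGG was found in 11.2% and 10.8% of peaks and 0.976% of windows. A match is a description of the letters and not a binding site.

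ATTTCCCC lay at a nearly fixed distance from the end of the peak. Read inward, it occurred 257 times between 40 bp outside and 70 bp inside an end, and 254 of these began 3 to 15 bp inside. The remaining 3 began elsewhere. The most frequent start was 9 bp inside, and 43 occurrences began 11 to 15 bp inside, just beyond the limit used for the counts above. Among the 211 peaks that carried it within that limit, 99 had it at the left end, 112 at the right end and none at both. A site found by both sets can enter these counts once per list, and the 211 peaks lay at 141 sites.

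**Figure D1:**
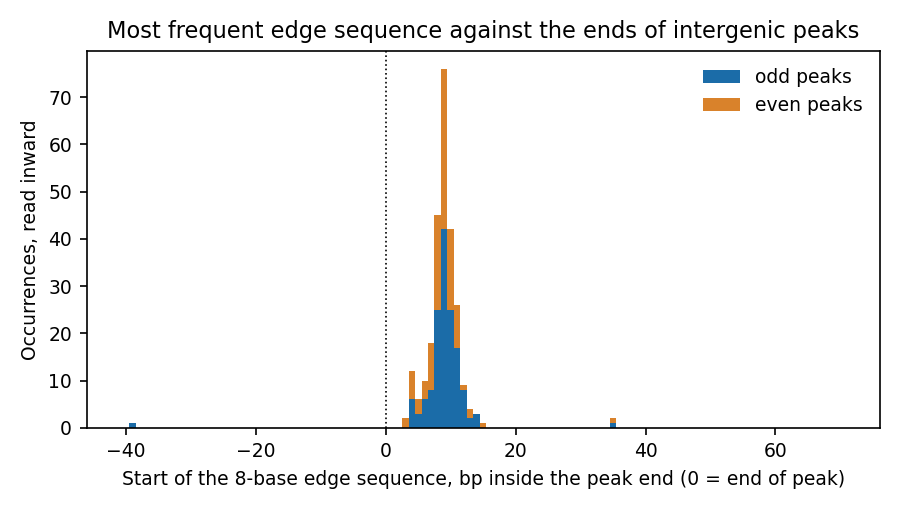
Start of ATTTCCCC, read inward, relative to the ends of intergenic peaks. The x axis is bp inside the end (0 is the end, negative values are outside the peak), the y axis is the number of occurrences, and the stacked bars show odd peaks (blue) and even peaks (orange). In both colours the occurrences are gathered between 3 and 15 bp inside, with the mode at 9 bp.

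The bases before ATTTCCCC were uneven as well. At the 141 intergenic sites with this sequence at an end, the base just before it was G at 110 sites (78.0%), against 16.3% of its 59156 occurrences in the genome. The base before that was T at 68.1% of sites against 31.2%, and the next was G at 62.4% against 22.6%. The base after the run was C at 46.8% of sites against 24.6%. These flanks spell the run shared by the sequences shown for the Tyrp1 and Kcnip4 sites. Of 10 annotated Pvt1 transcripts, none contained ATTTCCCC on its own strand and 1 contained it as the reverse complement. GATTTCCC, GTGATTTC and TTTTGGGG were in none of the transcripts on either strand, and none of the 18 probes contained any of the 4.

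Few peaks matched a probe. A match was a run of at least 12 bases shared with any of the 18 probes of 20 bases, on either strand. It was present in 12 odd intergenic peaks (3.20%, 1.66 to 5.52) and 9 even ones (3.14%, 1.44 to 5.87), against 0.359% of genome windows, and these 21 peaks formed 14 sites. The peaks in gene bodies matched at 4.56% (2.72 to 7.11) with odd probes and 4.27% (2.23 to 7.34) with even probes. Probes are printed below with sites that share their letters, because these sites were found by both sets and include the longest matches. Each site is printed on the strand that reads as the probe does, with the shared run in capitals.
Even probe 6: ATTCTAGAGCCTTCAGGAAG
Emcn site (chr3:137265828-137265868, minus strand): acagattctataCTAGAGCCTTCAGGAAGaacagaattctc
Diaph2 site (chrX:131124920-131124959, minus strand): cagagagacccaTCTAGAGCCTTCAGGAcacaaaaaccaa
Even probe 1: TTCAGGAAGTCTCCAGAGAG
Pde10a site (chr17:8505849-8505885, minus strand): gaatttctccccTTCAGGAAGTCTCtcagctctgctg
Odd probe 7: GTCCCTCACTACACAGAAAG
Tbx5 site (chr5:119820997-119821037, plus strand): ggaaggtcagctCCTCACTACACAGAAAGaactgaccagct

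The probe-matched intergenic sites included 7 found by both sets, and none of these carried a recurring edge sequence. The run was 17 bases of even probe 6 at the Emcn site, which had 7 odd and 6 even tags. At the Tbx5 site it was 17 bases of odd probe 7, with 7 tags in each list. The Tbx5 site gave the longest intergenic peak of both lists (345 bp odd, 394 bp even). It lay 11586 bp upstream of the GENCODE gene Tbx5 but within the span of the RefSeq gene of that name. Emcn encodes endomucin, a sialomucin of endothelial cells, and Tbx5 a T-box transcription factor of heart and forelimb. Even probe 6 also matched the Diaph2 site (16 bases; 3 odd and 4 even tags). The other matched sites were those of Pde10a (6 odd and 7 even tags), Gm1110 (7 and 5), Sox14 (7 and 6) and 4930470P17Rik (4 and 4).

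Even probes accounted for 5 of these 7 sites and odd probes for 2, and a peak stood at each of them in both lists. Among the 7 probe-matched sites found by one set, 6 matched an even probe, and 5 of those 6 were in the odd list only. The shared runs there were 12 to 16 bases, against 13 to 17 bases at the sites found by both. Of the 21 peaks with a match, 20 had the 5′ side of the probe toward the nearer end of the peak. The 7 sites found by both sets enter this count once per list, so the 21 peaks are not separate places. The exception was the Dmrtb1 site, found by the odd set only. A triplet of cytosines lay in the 12 bases before the run at 6 of the 13 matched sites whose sequence was read, among them the Pde10a site. No background share was computed for this triplet, so the count cannot be judged as high or low.

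The intergenic peaks fell at 467 distinct sites, where peaks of both lists that overlap by at least 1 bp count as 1 site. Both sets found 195 sites (41.8%, 37.2 to 46.4), 180 belonged to the odd list alone and 92 to the even list alone. By list, 52.0% of odd peaks (46.8 to 57.2) overlapped an even peak, against 47.9% of all odd peaks off chromosome Y. In the even list 67.9% (62.2 to 73.3) overlapped an odd peak, against 64.5% of all even peaks. The corresponding shares in gene bodies were 44.3% (39.3 to 49.4) and 62.6% (56.7 to 68.3). Every partner of an intergenic peak was itself intergenic by the rule.

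Paired peaks had almost the same borders. The median difference between the starts of 195 pairs was 1 bp, 90 pairs began at the same base and 176 (90.3%) began within 2 bp. Both start and end were identical in 46 pairs, and in 193 pairs at least 1 of the borders lay within 2 bp. The start and end of a peak are not separate measures, since most lengths were near the 147 bp extension (quartiles 147 and 149 bp in both lists). The widest difference of starts, 32 bp, was at the Cpxcr1 site on the X chromosome (4 odd and 5 even tags), whose ends lay 1 bp apart. The Cpxcr1 site was singled out after its values were seen.

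Among sites found by both sets, the pileups were alike in the lists. Sites called in 1 list only have no pair, so the values below do not measure agreement over all sites. The odd pileup was higher in 82 pairs, the even pileup in 44, and they were equal in 69. Across the 195 sites the Pearson correlation of the pileups was 0.75 and the Spearman correlation 0.68, as a description over sites that share 2 libraries and 1 control. Both peaks had 3 tags in 31 pairs and at least 5 tags in 71. The most unequal pair lay 42604 bp from A430033K04Rik, with 12 odd and 3 even tags, and was singled out after its values were seen.

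**Figure D2:**
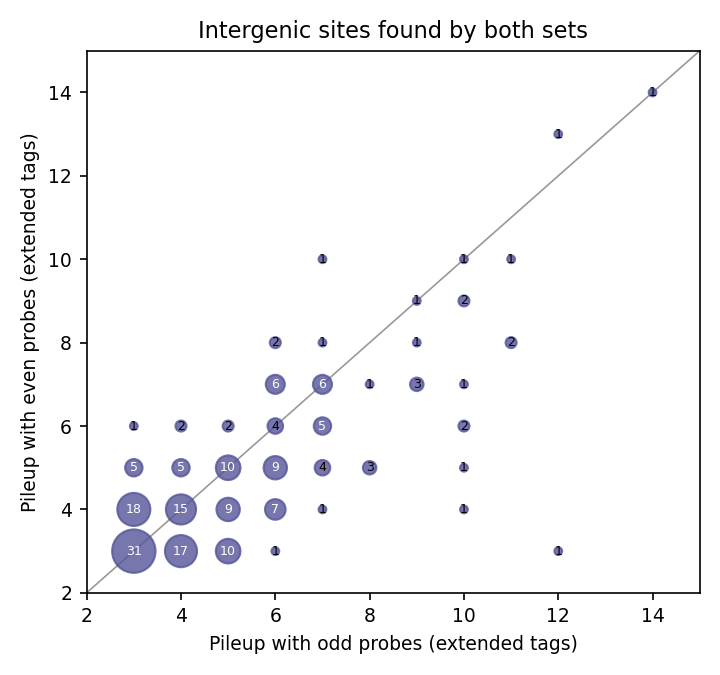
Pileup of the 195 intergenic sites found by both probe sets. The x axis is the odd pileup and the y axis the even pileup, both in extended tags at the summit; the area and the number of each point give the sites at that combination and the line marks equal pileups. The largest point is the 31 sites with 3 tags in both lists, and the point at 12 odd and 3 even tags is the A430033K04Rik site.

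Most peaks rested on very few tags. The median pileup was 4 in both lists, the lowest 3 and the highest 14. Exactly 3 tags were counted at 171 odd peaks (45.6%, 40.5 to 50.8) and 127 even peaks (44.3%, 38.4 to 50.2). At least 5 tags were counted at 116 odd (30.9%) and 92 even peaks (32.1%). Fold enrichment ran from 3.91 to 14.66 in the odd list and from 3.92 to 14.69 in the even list. Where the number of tags was higher, a larger share was found by both sets. In the odd list this share was 32.2% (25.2 to 39.7) at 3 tags, 44.3% (33.7 to 55.3) at 4, 83.3% (72.7 to 91.1) at 5 or 6 and 93.2% (81.3 to 98.6) at 7 or more. In the even list it was 47.2% (38.3 to 56.3), 75% (63.0 to 84.7), 88.3% (77.4 to 95.2) and 96.9% (83.8 to 99.9). At 3 tags more than 50% of the peaks were therefore seen in 1 list only, and whether a site was missed by the other set or absent from it cannot be told apart at this depth.

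**Figure D3:**
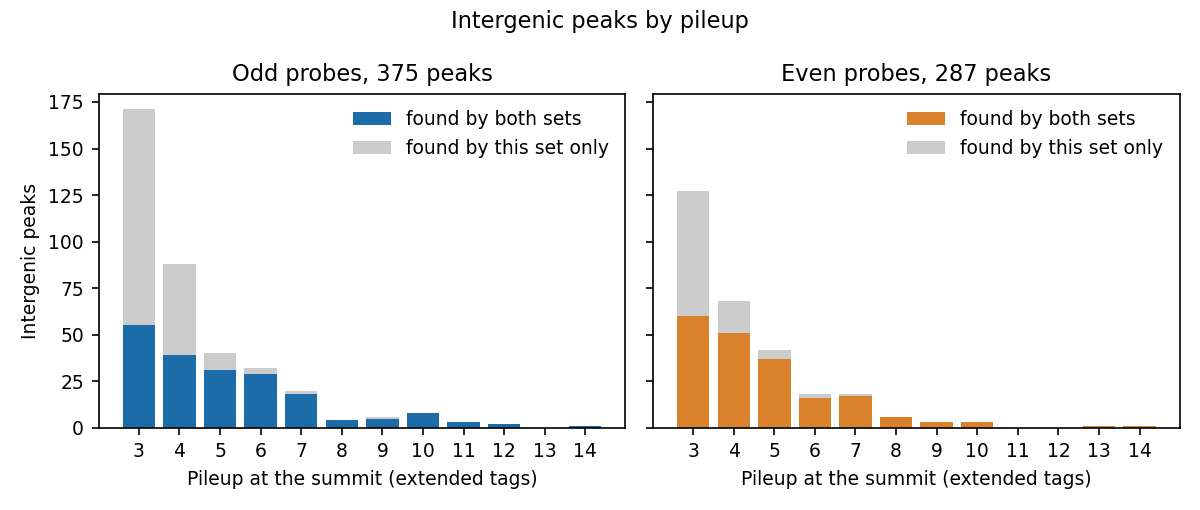
Number of intergenic peaks at each pileup, with the odd list (375 peaks) on the left and the even list (287 peaks) on the right. The x axis is the pileup at the summit in extended tags, coloured bars are peaks found by both sets and grey bars those found by that set only. Grey makes up most of the odd bar at 3 tags (116 of 171) and little of the bars at 7 tags or more.

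The edge sequence also differed with overlap. It was present in 86.2% (80.5 to 90.7) of odd peaks found by both sets and 73.3% (66.2 to 79.6) of those found by the odd set only. In the even list the shares were 87.2% (81.7 to 91.5) and 72.8% (62.6 to 81.6). Pileup moved with overlap in the same peaks, and its part in this difference was not tested. At 3 tags the edge sequence was present in 78.4% of odd and 80.3% of even peaks, and at 7 or more in 84.1% and 87.5%. Both peaks of the pair carried an edge sequence at 167 of the 195 shared sites, and at least 1 did at 171.

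The 10 shared sites with the highest lower pileup included 8 whose tags were equal or differed by 1. Ranking by the lower pileup favours sites whose lists are alike, so this count says nothing about how well the lists match. The highest was at chr1:141647923-141648081 with 14 tags in each list, 1035896 bp downstream of Kcnt2, a sodium-activated potassium channel gene. This peak consists mostly of repeats, since 88.1% of its bases are soft-masked in the reference, and its left end carries a thymine run. The Rpl3 site at chr15:80058049-80058203 had 11 odd and 8 even tags, lay 19716 bp downstream of this ribosomal protein gene and was 87.7% soft-masked.

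The high shared sites named next had less repeat sequence, with 0.0% to 16.9% of the bases of their odd peaks soft-masked. The Tyrp1 site (chr4:79841695-79841848; Tyrp1 encodes a melanin enzyme) had 10 tags in each list and lay 992374 bp upstream of the gene. The Armc1 site (chr3:19114516-19114671) had 10 odd and 9 even tags, 16843 bp downstream. The Ndufa10 site (chr1:92372238-92372391), near the gene of a subunit of respiratory complex I, had 9 tags in each list, 66688 bp downstream. These 3 sites, and the Kcnip4 site (chr5:49590135-49590287, 9 odd and 8 even tags, 65324 bp upstream of a potassium-channel-interacting protein gene), carry the sequences of the first set shown above. A site near Smad2, a mediator of TGF-beta signals, had 11 odd and 10 even tags, and a site near Epb41l4a had 10 and 9.

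The Hace1 site (chr10:47236633-47236787; Hace1 encodes an E3 ubiquitin ligase) was the only one of these 10 without a listed edge sequence, with 11 odd and 8 even tags at 1524365 bp from the gene. In all, 17 of the 195 shared sites had neither an edge sequence nor a probe match in either list. The Kyat3 site (chr3:142751917-142752071; Kyat3 encodes a kynurenine aminotransferase) had 10 odd and 7 even tags and lay 5140 bp downstream of the gene. Next came the Reep3 site with 6 odd and 5 even tags and the Ruvbl1 site with 6 and 4, Ruvbl1 being a subunit of chromatin remodelling complexes. The other 13 had at most 6 tags in either list. The 2 highest are printed whole, in lower case because no listed sequence begins within 10 bp of an end.
Whole Hace1 site (chr10:47236633-47236787, plus strand): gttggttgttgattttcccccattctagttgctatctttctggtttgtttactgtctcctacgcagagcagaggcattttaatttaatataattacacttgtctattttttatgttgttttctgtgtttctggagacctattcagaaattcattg
Whole Kyat3 site (chr3:142751917-142752071, plus strand): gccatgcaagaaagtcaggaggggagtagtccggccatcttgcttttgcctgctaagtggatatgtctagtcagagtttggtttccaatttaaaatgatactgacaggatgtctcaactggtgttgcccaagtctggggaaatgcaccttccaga

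The Hace1 peak does contain ttttcccc, one of the listed sequences, read inward from its left end and starting just past the 10 bp limit. The Kyat3 peak contains ggggaaat, the reverse complement of ATTTCCCC, which read inward from the right end also starts just past the limit. The Reep3 peak has tgattttt beyond it. The count of 17 thus depends on where the limit is set.

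Sites found by one set only were lower. The median pileup was 3 in both lists, and the highest was 9 in the odd and 7 in the even list. With ties broken by chromosome and position, the 5 highest with odd probes were those of Megf9 (9 tags, chr4:70562118-70562271), Pcdh9 (7 tags, a protocadherin gene), Zfat (7 tags, a zinc-finger protein gene), Cd82 (6 tags, a tetraspanin gene) and Gm11077 (6 tags). The 5 highest with even probes were those of Cnep1r1 (7 tags), Phf3 (6), Dynlrb2 (6), 2610301B20Rik (5) and Pdgfra (5 tags; Pdgfra encodes a receptor for platelet-derived growth factor). The last places were tied, since 3 odd-only peaks had 6 tags and 5 even-only peaks had 5. Of all 14 peaks at or above these pileups, 11 carried an edge sequence, and the Gm11077 and Pdgfra sites were among those that did not.

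The intergenic peaks lay somewhat closer to protein-coding genes than the eligible genome did. The median distance was 76834 bp for odd and 65324 bp for even peaks, against 109362 bp for the grid of genome windows. The nearest intergenic peak was 337 bp from a protein-coding gene and, by the rule, more than 5000 bp from its TSS. Peaks 10000 to 50000 bp away made up 29.1% (24.5 to 33.9) of the odd and 30.0% (24.7 to 35.6) of the even list, against 24.2% of windows. Those more than 500000 bp away made up 14.4% (11 to 18.4) and 14.3% (10.5 to 18.9), against 16.3%. Mappability and GC content were not matched between peaks and windows. Of the 467 sites, 234 lay upstream and 233 downstream of the nearest protein-coding gene.

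**Figure D4:**
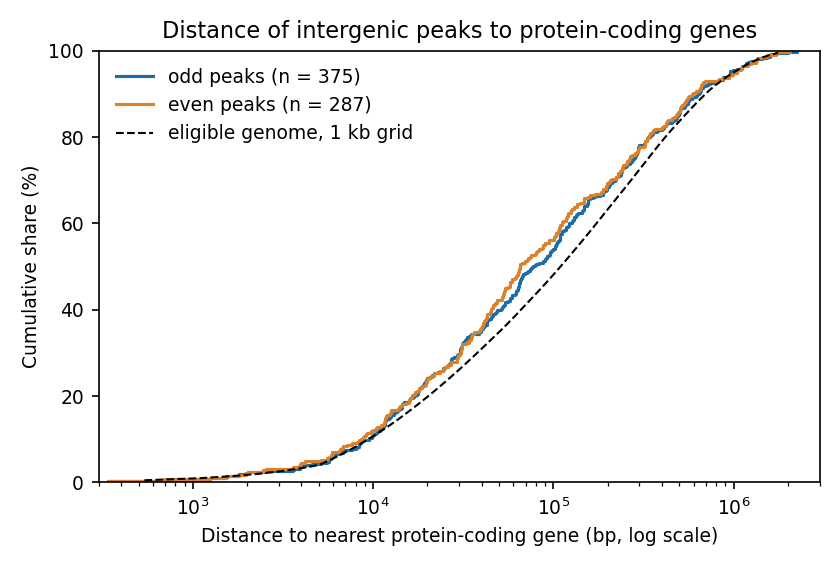
Cumulative share of intergenic peaks by distance to the nearest protein-coding gene. The x axis is distance in bp on a log scale, the y axis the cumulative share in percent, with odd peaks in blue, even peaks in orange and the grid of genome windows dashed. The peak curves run above the grid between about 10000 and 500000 bp, with medians of 76834 and 65324 bp against 109362 bp.

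Sites found by both sets and by one did not differ in 1 direction on every distance measure. The median distance to a protein-coding gene was 65312 bp for odd peaks found by both against 99080.5 bp for those found by the odd set only, and 65311 bp against 83755.5 bp in the even list. The lower quartile ran the other way, at 23817 bp for peaks found by both in either list against 21051 bp (odd only) and 20787.5 bp (even only). The median distance to a gene of any type was also higher for peaks found by both, at 25121 bp against 20728 bp in the odd list and 25120 bp against 20714.5 bp in the even list. Measured to the TSS of the nearest protein-coding gene, the medians over all intergenic peaks were 117497 bp (odd) and 107492 bp (even), against 144899 bp for the grid. The 5 peaks farthest from a protein-coding gene included 3 upstream of Pik3c3, at 1994801 to 2238754 bp, with 3 or 4 tags and each found by 1 set. Pik3c3 encodes the class III phosphoinositide 3-kinase of autophagy. The fourth was an even peak of 4 tags 1739152 bp upstream of Slc10a2, the ileal bile acid transporter gene. The fifth was found by both sets, 1705564 bp upstream of Tenm2, a teneurin gene, at chr11:38941453-38941602 with 6 odd and 5 even tags.

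Intergenic sites lay far apart. The median spacing of neighbouring sites was 3533030 bp, and 18 of 447 neighbouring pairs lay under 100000 bp apart. No place held 3 or more sites within 100000 bp. The sites had 421 different nearest protein-coding genes, of which 39 were nearest to 2 or more sites and 6 to 3 or more. Pik3c3 had 4 sites, and 1700129C05Rik, Cdh11, Fam19a5, Flrt2 and Tenm2 had 3 each. The eligible genome nearest to each of them was 2.17 Mb for Pik3c3, 0.416 Mb for 1700129C05Rik, 2.12 Mb for Cdh11, 0.811 Mb for Fam19a5, 2.97 Mb for Flrt2 and 1.64 Mb for Tenm2.

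The density was 4.06 sites per 10 Mb of eligible genome. The lowest was on chromosome 14, with 2.54 (1.39 to 4.27), followed by the X chromosome with 2.75 (1.81 to 4.0). The highest were on chromosome 18, with 6.63 (4.40 to 9.58), and chromosome 8, with 6.23 (4.31 to 8.70). The intervals of the X chromosome, chromosome 8 and chromosome 18 did not include the density of all 20 chromosomes together, and 20 intervals were computed. Copy number of the C2C12 genome was not used here, and its part in these densities was not tested.

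**Figure D5:**
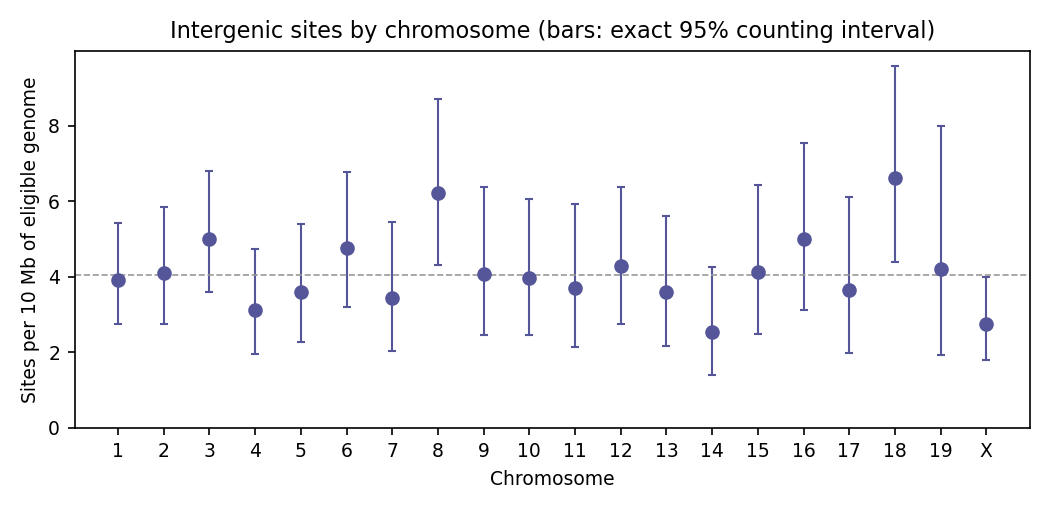
Density of the 467 intergenic sites by chromosome. The x axis is the chromosome, the y axis sites per 10 Mb of eligible genome, points are densities, bars are exact 95% Poisson counting intervals and the dashed line is the density of all chromosomes (4.06). Chromosomes 8 and 18 stand above the line and the X chromosome below it.

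Repeats were less frequent under the peaks than in the grid. Peaks with more than 50% soft-masked bases were 21.9% (17.8 to 26.4) of the odd and 26.1% (21.1 to 31.6) of the even list, against 35.7% of windows. In gene bodies the shares were 15.7% (12.3 to 19.7) and 18.1% (13.8 to 23.2). Peaks without any soft-masked base were 29.9% and 24.4%, against 23.5% of windows. The median GC content was 42.18% and 41.61%, against 40.54%. Some sites outside GENCODE genes lay in the span of a RefSeq gene, 42 of 467 (8.99%), of which 27 were lncRNA genes, 10 protein-coding genes and 3 pseudogenes.

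Genes of muscle and of the Myc network were nearest to few sites, and the eligible genome nearest to them was small as well. Of 15 myogenic regulators, only Pax3, a transcription factor of muscle progenitors, was nearest to a site, with 2 sites. One was an even peak of 3 tags 227573 bp downstream and the other an odd peak of 3 tags 67854 bp downstream, and neither was found by both sets. Of 12 genes of the Myc network and cell cycle, Max, the dimerisation partner of Myc, was nearest to 1 site, with 3 odd and 4 even tags 129916 bp upstream. None of the 13 genes of atrophy, FoxO signalling and survival was nearest to a site, and a count of 0 of 467 has an exact upper 95% limit of 0.787%. The myogenic regulators were nearest to 0.428% of sites (0.0519 to 1.54), against 0.175% of the eligible genome. For the Myc network the share was 0.214% (0.00542 to 1.19), against 0.105%. The eligible genome nearest to the atrophy genes was 0.0956%. The intervals of these groups include their shares of the eligible genome, and a count of 0 to 2 at 467 sites leaves them wide.

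The gene families differed in how many sites they were nearest to. Solute carrier genes (Slc) were nearest to 15 sites (3.21%, 1.81 to 5.24), against 1.59% of the eligible genome, and 9 of the 15 were found by both sets. They were spread over 14 genes, with Slc16a7, a monocarboxylate transporter gene, nearest to 2 shared sites (6 odd and 4 even tags, and 3 in each list). The Slc35f5 and Slc35f1 sites had 6 odd and 5 even tags each. Cadherin and protocadherin genes were nearest to 13 sites (2.78%, 1.49 to 4.71, against 3.28%), 3 of them around Cdh11, on chromosome 8. One of the Cdh11 sites had 7 tags in each list and another 7 odd and 5 even tags.

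Olfactory receptor genes were nearest to 3 sites (0.642%, 0.133 to 1.87, against 1.21%) and vomeronasal receptor genes to 1 (0.214%, 0.00542 to 1.19, against 0.886%). Zinc-finger genes (Zfp) were nearest to 5 sites (1.07%, against 1.28%), among them Zfp365 with 5 odd and 6 even tags. Of the synaptic adhesion genes, only Slitrk1 was nearest to a site, with 5 tags in each list. The intervals of all these families except the solute carriers included the share of the eligible genome, and 9 gene groups were compared.

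No intergenic peak of either list lay within 1 Mb of Pvt1. At 4.06 sites per 10 Mb of eligible genome and a median spacing of 3533030 bp, many places have no site that close. Whether the absence is particular to this locus was not tested. The nearest was 2062582 bp away, at chr15:64440663-64440814 near Asap1, with 7 odd and 4 even tags. On the other side a shared site of 3 tags in each list lay 2085589 bp away. Both sites carried an edge sequence.

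The limit of 5000 bp was not crowded. The members nearest to it lay 5148, 5177 and 5370 bp from a TSS, with 5, 3 and 4 tags, and the nearest peaks left out lay 4847, 4806 and 4762 bp away, with 3, 3 and 8 tags. There were 90 intergenic peaks within 10000 bp of a TSS, and 114 peaks outside gene spans were left out for lying within 5000 bp.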

How the data were processed

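DNA recovered with Pvt1 was sequenced from 1 odd-probe and 1 even-probe capture of C2C12 cells. Per the series design text, reads were aligned to mm10 with TMAP and peaks called with MACS2, which the submitters' processing notes give as version 2.1. Per the file headers, each list was called against unprecipitated DNA with 1 tag kept per position, an extension of 147 bp, a q cutoff of 0.05 and a genome size of 90000000, the caller's preset for a nematode. The headers give the odd tag size as 105 bp and the even tag size as 54 bp. Because few tags remained after duplicates were removed, pileups are small whole numbers and shares at low pileup are coarse.

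The deposited pileup is a signal in extended tags. The deposited fold enrichment is the value the authors' caller gives for pileup against background, and here it nearly repeats the pileup. The deposited −log10 of the p and q values stand under damaged column names and were identified by their order, which is that of the caller. They served only to vary the q threshold.

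Peaks were assigned by summit to genes of GENCODE mouse release 21 (53843 genes on 20 chromosomes, 21755 of them protein-coding). Overlap, distance, edge sequences, probe matches and masking were computed in Python 3.11.15 with pandas 2.3.3, numpy 2.4.6 and scipy 1.17.1, and checked on simulated data. Genome windows of 148 bp every 1000 bp gave the background, and the sequence came from RefSeq GRCm38. No test was made between the lists, since there is 1 sample per set.

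Named sites were the 10 shared sites with the highest lower pileup, the 5 highest per list found by one set, the 5 farthest from a protein-coding gene and any place with 3 or more sites within 100000 bp, with the nearest gene of 9 gene groups. Shared sites with no edge sequence or probe match, the sites with probe matches, the sites nearest to Pvt1 and the genes nearest to 3 or more sites were named in addition. One site chosen by this rule is not reported here. Members, sequences and lists were chosen with earlier results of these data known. Alternatives varied the TSS limit, gene set, peak position, overlap, q value, pileup, masking, edge definition and distance measure.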

Additional observations from a re-analysis of the deposited data

Results flagged for a closer look

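On chromosome Y, which the rule leaves out, 17 peaks otherwise met every criterion for an intergenic site far from a TSS. Odd probes gave 11 of them and even probes 6, out of 19 peaks on this chromosome altogether. They enter no count above.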

How the results depend on the processing

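Of the planned recomputations, 121 stayed within the spread or 1.5 times of the reported value and 32 moved. Some of the 121 could not move, since the q threshold removed no peak and every partner was already intergenic. All 30 of those added after seeing the data (RefSeq gene spans added to the exclusion, and chromosome X left out) stayed. With a limit of 10000 bp to a TSS the median distance of odd peaks was 104423 bp. With 50000 bp there were 124 odd and 95 even peaks, 67 sites found by both (67 peaks per list), median distances of 221540.5 and 240891 bp, and 37.9% of even peaks with at least 5 tags. Among peaks of at least 5 tags, 116 odd and 92 even remained, 71 sites were found by both (71 per list, 61.2% and 77.2%), and 85.3% and 88.0% had an edge sequence. Without peaks that carry an edge sequence or a probe match, 65 odd and 41 even remained. Of these 20 odd (30.8%) and 18 even (43.9%) overlapped a peak of the other list at 17 sites, 18.5% and 14.6% had at least 5 tags, and 31.7% of even peaks were mostly soft-masked. With starts within 2 bp, 61.3% of even peaks were shared. Distances to a TSS had medians of 117497 and 107492 bp. With edge sequences sought in the first and last 20 bases only, 84.5% of odd peaks had one. The cause of these shifts was not tested beyond the smaller number of peaks that several settings leave by construction.

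No paired analysis was possible because each probe set has 1 sample. No replicate was left out for the same reason. Peaks of 3 tags, the lowest pileup here, make up 45.6% of the odd and 44.3% of the even list, and the part of depth in their lower overlap was not tested.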
